A study of Mus musculus with 16 samples.

Results

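Thermogenic and beige adipocyte genes were followed by RNA sequencing of whole mouse inguinal white adipose tissue (iWAT), as the 10 rows of the deposited expression values that carry the names Ucp1, Cidea, Cox7a1, Cox8b, Dio2, Elovl3, Prdm16, Ppargc1a, Pdk4 and Ebf2, of 54532 genes in all. The 16 libraries came from 4 groups of 4 male mice each. Apn-Has2 mice (Has2_TG) carried the reverse tetracycline transactivator rtTA under the adiponectin promoter together with a hyaluronan synthase Has2 transgene under the TRE promoter that rtTA binds, and Apn-PH20 mice (PH20_TG) carried the same rtTA with a TRE transgene for PH20, a hyaluronidase encoded by Spam1. Their littermate controls, labelled WT (Has2_WT and PH20_WT), were Apn-rtTA mice in the study. All 4 groups started at 8 to 10 weeks of age and ate normal chow with 200 mg/kg doxycycline for 5 days before the tissue was taken, so the controls shared the diet, and the labels name no cold exposure of these mice. The adiponectin promoter restricts the transgenes to adipocytes, whereas the RNA came from the whole tissue.

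Beige adipocytes are thermogenic fat cells that appear within white fat, for example during cold exposure, and they share much of the gene programme of brown adipocytes. Norepinephrine raises cAMP in the adipocyte, lipolysis frees fatty acids, and these activate uncoupling protein 1 (UCP1), which lets protons pass the inner mitochondrial membrane so that respiration yields heat. Among the 10 genes, Ucp1 encodes this protein. Cidea is a lipid droplet protein used as a marker of brown and beige fat, and Elovl3 elongates very long chain fatty acids. Cox7a1 and Cox8b are tissue-specific subunits of cytochrome c oxidase that heart and skeletal muscle express as well. Dio2 converts thyroxine to the active thyroid hormone within the cell, and Pdk4 is a kinase that turns pyruvate dehydrogenase off and so favours fat over glucose as fuel. Prdm16, Ppargc1a and Ebf2 are regulators: Prdm16 and Ebf2 act in the identity of brown and beige adipocytes, and the coactivator Ppargc1a (PGC-1α) drives mitochondrial biogenesis.

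The sequences before the start sites of Ucp1, Dio2 and Ppargc1a are shown because these 3 genes answer to the cAMP pathway. They are the 250 bases upstream of the start in the RefSeq promoter table of GRCm38.p6, read 5′ to 3′ on the strand of the gene, and the capitals mark TGACG, the half-site of the cAMP response element, or its reverse complement CGTCA. The window of Ucp1 is chr8:83290098-83290347 on the plus strand, that of Dio2 is chr12:90739039-90739288 on the minus strand, and that of Ppargc1a is chr5:51567726-51567975 on the minus strand. The RefSeq start used for Dio2 lies 600 bases from the gene start in the deposited annotation.
Ucp1: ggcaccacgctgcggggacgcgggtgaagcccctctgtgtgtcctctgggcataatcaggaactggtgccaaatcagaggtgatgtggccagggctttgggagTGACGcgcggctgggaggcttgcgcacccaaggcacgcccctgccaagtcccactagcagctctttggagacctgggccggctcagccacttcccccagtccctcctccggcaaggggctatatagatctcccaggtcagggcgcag
Dio2: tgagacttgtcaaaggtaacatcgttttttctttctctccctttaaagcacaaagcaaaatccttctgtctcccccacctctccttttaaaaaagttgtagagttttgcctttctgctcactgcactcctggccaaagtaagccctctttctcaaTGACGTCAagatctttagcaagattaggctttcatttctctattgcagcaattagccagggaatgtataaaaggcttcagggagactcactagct
Ppargc1a: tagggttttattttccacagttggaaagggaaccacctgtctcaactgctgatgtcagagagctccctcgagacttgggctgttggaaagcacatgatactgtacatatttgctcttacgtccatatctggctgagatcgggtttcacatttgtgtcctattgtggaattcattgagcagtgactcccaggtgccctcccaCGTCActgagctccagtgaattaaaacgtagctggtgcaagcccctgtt
The motif began 147 bases upstream of the start in Ucp1 and 49 bases upstream in Ppargc1a. In Dio2 it occurred on both strands, from 95 to 88 bases upstream, as the palindrome TGACGTCA. Searched on both strands, TGACG was found in 17.8% of the 32851 promoters of the same length. Of the members, 7 had an entry that could be shown, and the windows of Cox7a1, Cox8b, Prdm16 and Pdk4 did not hold these letters. The 3 windows shown are thus those that held the motif, and a link of the motif to the levels of these genes was not tested. A match is a description of the letters and does not show that a factor binds there.

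The libraries held 14421692 to 26751729 reads on genes, and Has2, the transgene of the Apn-Has2 mice, lay at 1.86 to 3.24 FPKM (fragments per kilobase of gene, scaled to library size) in Has2_TG against 0.417 to 0.806 in Has2_WT. Spam1 had 6, 12 and 5 reads in PH20_TG2, PH20_TG3 and PH20_TG4 and 0 reads in PH20_TG1 and the 12 libraries of the other groups, so the library labelled PH20_TG1 had no read of its transgene, and a limit of 3 reads corresponds there to 0.0790 FPKM. Has2 itself lay at 3.32 and 3.26 FPKM in PH20_TG1 and PH20_TG4, at the level of Has2_TG, and at 0.380 and 0.0990 FPKM in PH20_TG2 and PH20_TG3. The libraries labelled PH20_TG1 and PH20_TG4 thus go against their labels in Has2. Only some of the values that rest on them are also given without both, an alternative chosen after seeing the data. The adipocyte markers summed to between 11101 and 28854 FPKM in every library, with 0 of 11 called in either study. Of the 4 listed markers of brown adipocytes, Zic1 had 0 reads in 13 libraries and 1 read in the other 3. The others were detected, with Lhx8 up to 2.99 FPKM, Epsti1 up to 71.9 FPKM and Mpzl2 up to 1.46 FPKM. B cell markers summed to at most 322 FPKM and stood high in Has2_WT1, Has2_WT2, PH20_WT1 and PH20_WT3, where the score of the 8 markers was 3.13 to 4.96 and that of every other library was below 0. A gene is called here, and written as higher or lower, where the unadjusted p of limma was under 0.05, the threshold of the study, and adjusted p-values are given beside it. Values are followed below under the labels, and p-values measure only the spread between these libraries.

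Taken per gene length, Cox8b was the most abundant of the 10 genes, with a median of 427 FPKM over the 16 libraries, and Dio2 the least, at 0.413 FPKM. Cidea followed at 286 FPKM, Pdk4 at 119 FPKM, Cox7a1 at 52.4 FPKM and Ucp1 at 34.5 FPKM. The regulators were lower, with Ebf2 at 5.09 FPKM, Prdm16 at 1.97 FPKM and Ppargc1a at 1.71 FPKM, and Elovl3 lay at 1.31 FPKM. Within libraries, the mean difference on the log2 scale exceeded its SD between Cidea and Pdk4 (1.19 ± 0.46), Pdk4 and Cox7a1 (1.31 ± 0.69), Ucp1 and Ebf2 (2.93 ± 1.64), and Ebf2 and Prdm16 (1.45 ± 0.71). It did not exceed the SD between the other neighbours in this order. Elovl3 and Ucp1 varied most across the libraries, with an SD of 1.85 and 1.58 on the log2 scale, and Ebf2 varied least, with an SD of 0.34.

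**Figure D1:**
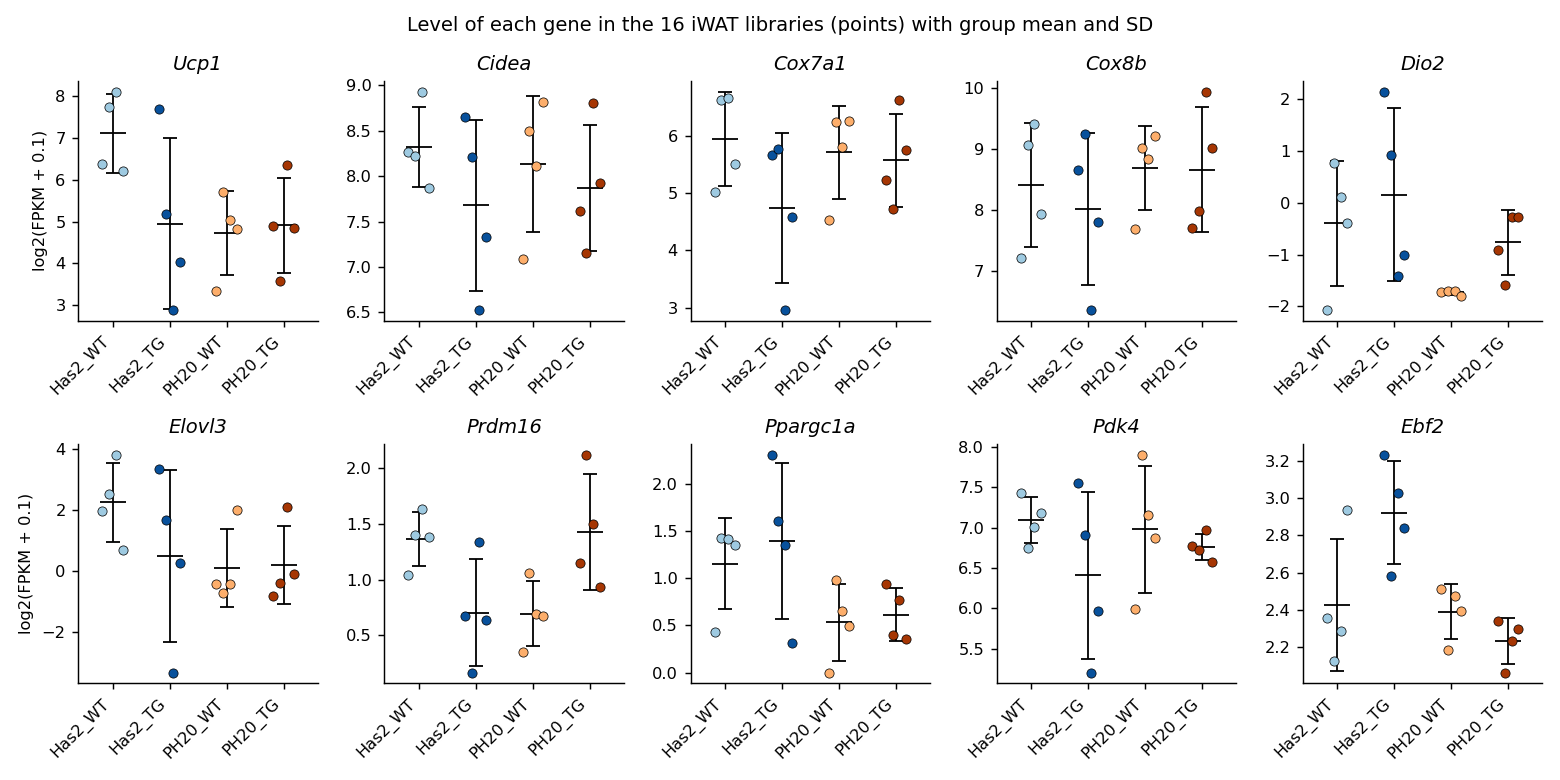
Level of each of the 10 genes as log2(FPKM + 0.1) on the vertical axis, by group on the horizontal axis, with 1 point per library and the group mean and SD as bars. Each panel has its own scale. In Has2_TG, 3 of 4 libraries lay below every Has2_WT library for Ucp1 and for Prdm16, and in PH20_TG, 3 of 4 libraries lay above every PH20_WT library for Prdm16.

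The comparison of Has2_TG with Has2_WT asks how a rise of Has2 in adipocytes over 5 days changed the thermogenic genes. Ucp1 and Prdm16 were lower in Has2_TG before adjustment and not after it, and the other 8 genes did not pass the test. Ucp1 was at 82.6, 215, 275 and 74.4 FPKM in Has2_WT1 to Has2_WT4, and at 206, 36.3, 7.31 and 16.4 FPKM in Has2_TG1 to Has2_TG4. All Has2_WT libraries were above 3 of the 4 Has2_TG libraries, while Has2_TG1 lay among the controls, so the groups overlapped. The mean of Ucp1 was 162 ± 99.4 FPKM (SD, n = 4) in Has2_WT and 66.6 ± 94.0 FPKM (SD, n = 4) in Has2_TG. On log2(FPKM + 0.1) the fold change was -2.16 (SE 0.90, adjusted p = 0.459 in limma), with a 95% interval from -4.17 to -0.15 and a fold of 0.224. Without Has2_TG1 it was -3.07 and also called. Leaving out Has2_WT2, Has2_WT3, Has2_TG2, Has2_TG3 or Has2_TG4 ended the call, with values down to -1.47, as given in the closing section.

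Prdm16, the transcriptional regulator, was at 1.96, 2.55, 3.0 and 2.51 FPKM in Has2_WT1 to Has2_WT4. It was at 1.49, 1.02, 2.44 and 1.46 FPKM in Has2_TG1 to Has2_TG4. Here Has2_TG3, the lowest library for Ucp1, was the one that reached the controls, and the other 3 lay below them. The log2 fold change was -0.66 (SE 0.29, adjusted p = 0.486 in limma), a fold of 0.632, and the call ended without Has2_WT2, Has2_WT3, Has2_WT4, Has2_TG1, Has2_TG2 or Has2_TG4. The FPKM of Prdm16 rested on 158 to 498 reads per library in this study.

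Over the 10 genes, 2 were called lower and 0 higher at an unadjusted limma p under 0.05, against 3.75% of the 12606 genes tested called lower and 6.25% called higher. After adjustment 0 of the 10 were called, against 0.103% of all genes, and 0 of the 10 had groups that did not overlap, against 6.19% of all genes. The log2 fold changes of 7 of the 10 were negative, with a median of -0.65 against -0.03 over all genes tested. In bulk tissue, fewer beige adipocytes and less RNA of these genes per cell cannot be told apart.

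The effector genes that did not pass the test spread widely within Has2_TG. Cidea was at 400, 296, 92.2 and 161 FPKM in Has2_TG1 to Has2_TG4 and at 234 to 487 FPKM in Has2_WT (log2 fold change -0.64, SE 0.43). Cox7a1 was at 51.1, 54.8, 7.69 and 23.8 FPKM in Has2_TG and at 32.4 to 101 FPKM in Has2_WT (log2 fold change -1.20, SE 0.62, adjusted p = 0.578 in limma). Cox8b was at 82.1 to 606 FPKM in Has2_TG and 148 to 674 FPKM in Has2_WT, and Pdk4 was at 36.9 to 187 FPKM in Has2_TG and 107 to 172 FPKM in Has2_WT. For these 4 genes the values of Has2_TG3 were below every control, and Has2_TG1 lay within the range of the controls or above it.

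Elovl3 had 378, 78, 0 and 35 reads in Has2_TG1 to Has2_TG4, or 10.0, 3.14, 0 and 1.12 FPKM, and 1.51 to 14.1 FPKM in Has2_WT. The count of 0 in Has2_TG3 allows up to 3 reads, or 0.107 FPKM. Its log2 fold change was -1.76 (SE 1.24) and the groups overlapped.

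Among the genes with higher means in Has2_TG, Ebf2 came closest to the threshold. It was at 5.03, 4.26, 4.79 and 7.54 FPKM in Has2_WT1 to Has2_WT4 and at 9.29, 5.89, 8.03 and 7.05 FPKM in Has2_TG1 to Has2_TG4. Only Has2_WT4 among the controls reached the range of Has2_TG, and the log2 fold change was 0.49 (SE 0.22, adjusted p = 0.507 in limma), called in 6 of 21 alternatives. Dio2 ranged from 0.276 to 4.32 FPKM in Has2_TG and from 0.139 to 1.60 FPKM in Has2_WT (log2 fold change 0.55, SE 0.86), and Ppargc1a from 1.14 to 4.86 FPKM in Has2_TG and from 1.25 to 2.58 FPKM in Has2_WT (log2 fold change 0.24, SE 0.42). Both differences were smaller than their standard errors.

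In every group but not for every gene, single libraries stood high or low. PH20_TG3 was the highest of its group for 7 of the 10 genes, PH20_WT1 the lowest for 7 and Has2_WT3 the highest for 6. Within Has2_TG, 1 library was likewise high for most of the genes and another low. Has2_TG1 was the highest of its group for 7 of the 10 genes, and Has2_TG3 the lowest for 7 of the 10. Skeletal muscle markers differed among the same libraries: their score was 4.15 and 5.32 in Has2_TG1 and Has2_TG2 and -2.09 and -2.36 in Has2_TG3 and Has2_TG4, against 0.27 to 2.46 in Has2_WT. The summed level of the 12 of these markers measured above the minimum of reads ranged from 7.92 to 964 FPKM in Has2_TG and from 26.4 to 127 FPKM in Has2_WT, and Tnnc2 was at 0 reads in every library. Of the 11 muscle markers tested, 0 were called between the groups. With the muscle score as a covariate, the call of Ucp1 held at -2.13 and 5 of the 10 genes were called, all lower, where the same fit called 484 of 12606 genes lower and 789 higher. When the fit held the B cell score instead, Ucp1 was at -2.21 and was no longer called. B cell markers summed to 2.24 to 315 FPKM in Has2_WT and to 1.66 to 3.22 FPKM in Has2_TG, with 3 of 8 called lower. Without Has2_WT1 and Has2_WT2, the controls with B cell transcripts, Ucp1 was still at -2.21, and 0 of the 10 genes were called.

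The comparison of PH20_TG with PH20_WT asks, by the labels, about a hyaluronidase made by adipocytes, although PH20_TG1 had no Spam1 read and PH20_TG1 and PH20_TG4 had Has2 at the level of Has2_TG. Prdm16 was higher in PH20_TG before adjustment and not after it, and the other 7 genes tested did not pass. Prdm16 was at 1.17, 1.98, 1.51 and 1.5 FPKM in PH20_WT1 to PH20_WT4 and at 2.12, 4.26, 2.73 and 1.81 FPKM in PH20_TG1 to PH20_TG4. The lowest PH20_TG library lay below the highest control and the other 3 lay above every control. The log2 fold change was 0.74 (SE 0.28, adjusted p = 0.703 in limma), a fold of 1.66, and without PH20_TG1, the library with no Spam1 read, it was 0.83 and also called. Without PH20_TG1 and PH20_TG4 it was 1.12 and called, with only PH20_TG2 and PH20_TG3, the highest libraries for Prdm16, left in the group. The call ended without PH20_WT1, PH20_WT3, PH20_WT4, PH20_TG2 or PH20_TG3, and with the muscle score as a covariate the log2 fold change was 0.34 and not called.

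Of the 8 genes at or above the minimum mean of 50 reads, 1 was called higher and 0 lower, against 3.20% and 3.39% of the 12532 genes tested. After adjustment 0 of 8 and 0% of all genes were called, and 0 of the 8 had groups that did not overlap, against 4.54% of all genes. Their median log2 fold change was -0.08 against 0.01 over all genes tested. Ucp1 was at 9.98, 52.4, 32.6 and 28.4 FPKM in PH20_WT1 to PH20_WT4 and at 29.7, 11.8, 81.4 and 28.5 FPKM in PH20_TG1 to PH20_TG4. The ranges of the groups overlapped, with PH20_TG3 above every control, and the log2 fold change was 0.19 with a 95% interval from -1.25 to 1.62. Without PH20_TG1 and PH20_TG4 it was 0.23. The intervals of Cidea (-1.26 to 0.74), Cox7a1 (-1.23 to 0.96), Cox8b (-1.22 to 1.16) and Pdk4 (-1.01 to 0.57) also spanned 0. Those of Ppargc1a (-0.51 to 0.67) and Ebf2 (-0.46 to 0.15) were narrower.

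Dio2 and Elovl3 had means under 50 reads in this study and were not tested there. Dio2, the deiodinase, was at 0.203, 0.208, 0.209 and 0.186 FPKM in PH20_WT1 to PH20_WT4, from 17 to 27 reads. It was at 0.431, 0.233, 0.732 and 0.724 FPKM in PH20_TG1 to PH20_TG4, from 27 to 71 reads. Every PH20_TG library lay above every PH20_WT library, where 4.54% of the genes tested in this study had groups that did not overlap. The gap was narrow, from 0.209 FPKM (24 reads) in PH20_WT3 to 0.233 FPKM (27 reads) in PH20_TG2. In a fit without a minimum of reads its log2 fold change was 0.97 (SE 0.47, adjusted p = 0.817 in limma). Elovl3 ranged from 0.511 to 3.91 FPKM in PH20_WT and from 0.469 to 4.17 FPKM in PH20_TG, each group with 1 library far above its other 3.

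Skeletal muscle and B cell markers moved with these groups. Of the 12 muscle markers tested, 11 were called lower in PH20_TG, with a summed level of 272 to 1136 FPKM in PH20_WT and 11.2 to 322 FPKM in PH20_TG. The strongest by p-value were Mylpf, Tnni2, Mb and Tnnt3, at log2 fold changes of -3.60, -4.32, -3.28 and -4.02. B cell markers summed to 3.69 to 322 FPKM in PH20_WT and 2.23 to 3.53 FPKM in PH20_TG, with 4 of 8 called lower. Without PH20_WT1 and PH20_WT3, the controls with B cell transcripts, Prdm16 was at 0.56 and 0 members were called. The part of either tissue in the values of the other genes was not tested.

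**Figure D2:**
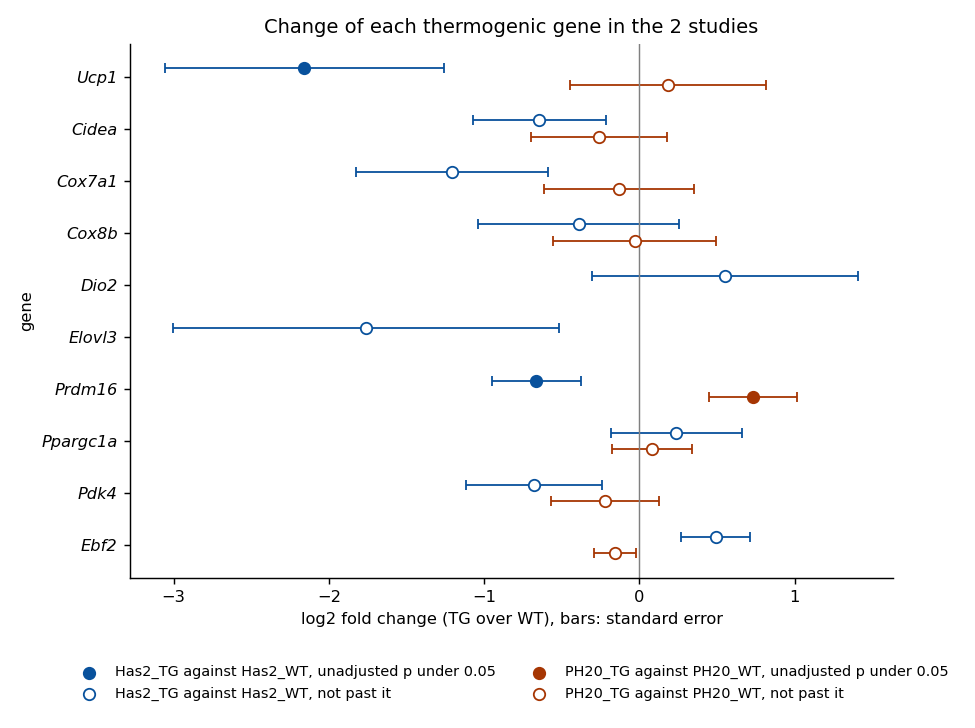
Log2 fold change of each gene (TG over WT) on the horizontal axis, blue for the Has2 study and brown for the PH20 study, with the standard error as bars and filled points for an unadjusted limma p under 0.05. Dio2 and Elovl3 have no PH20 value because they were under the minimum of reads. Prdm16 is at -0.66 in one study and 0.74 in the other, and Ucp1 at -2.16 and 0.19.

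The difference between the studies was tested in 1 fit of all 16 libraries, as the log2 fold change in the Has2 study minus that in the PH20 study. Prdm16 and Ebf2 were called, with PH20_TG1 and PH20_TG4 kept under their labels and with control groups that differed in Prdm16 as given below. For Prdm16 the difference was -1.40 (SE 0.40, adjusted p = 0.567 in limma). It stayed past the unadjusted threshold in all 29 alternatives, 16 of which left out 1 library, with values from -1.78 to -0.97. Median-of-ratios scaling of the libraries, 1 of the 29, repeated the calls of the main fit over all genes (507 higher, 463 lower), so it was no separate check. The value of -1.78, without PH20_TG1 and PH20_TG4, also passed after adjustment, with 2 libraries left in PH20_TG. For Ebf2 the difference was 0.65 (SE 0.26, adjusted p = 0.611 in limma), and it was no longer called without Has2_WT2 (0.55), without Has2_TG1 (0.55) or without the 4 libraries with B cell transcripts (0.36), while without PH20_TG1 and PH20_TG4 it was 0.73 and called. Ucp1 differed by -2.34 (SE 1.21, adjusted p = 0.689 in limma), which did not pass. Of the 10 genes, 1 was called lower and 1 higher, against 3.68% and 4.03% of the 12593 genes tested, and 0 of 10 and 0% of all genes passed after adjustment.

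The same fit set the 2 control groups side by side. These groups had the same diet and rtTA, and the labels do not say whether they were handled together, so the study and the group cannot be told apart. Ucp1 was higher in Has2_WT, at 74.4 to 275 FPKM, than in PH20_WT, at 9.98 to 52.4 FPKM, and the groups did not overlap. The log2 fold change was 2.38 (SE 0.86, adjusted p = 0.390 in limma), a fold of 5.21, and it was not called without PH20_WT1 (1.92) or without the 4 libraries with B cell transcripts (1.89). The means of Ucp1 in Has2_TG (66.6 FPKM), PH20_TG (37.9 FPKM) and PH20_WT (30.9 FPKM) were all below that of Has2_WT (162 FPKM), and the medians were 26.4, 29.1, 30.5 and 149 FPKM. Has2_WT serves in both comparisons, so the lower Ucp1 of Has2_TG and the higher Ucp1 of Has2_WT against PH20_WT rest on the same 4 libraries.

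Prdm16 was also higher in Has2_WT than in PH20_WT, with a log2 fold change of 0.67 (SE 0.29, adjusted p = 0.449 in limma). This call held in 20 of 29 alternatives. Those that left out only TG libraries kept every control library, so they could change only the filter and the estimated variance. Median-of-ratios scaling repeated the calls of the main fit over all genes. The means were 2.51 ± 0.426 FPKM in Has2_WT, 1.60 ± 0.596 FPKM in Has2_TG, 1.54 ± 0.334 FPKM in PH20_WT and 2.73 ± 1.09 FPKM in PH20_TG (SD, n = 4 each). Both genes called here were higher in Has2_WT, 2 of 10 against 5.61% of all genes called higher, and 0 of 10 were lower against 4.66%. After adjustment 0 of 10 and 0% of all genes were called, and non-overlapping groups were found for 1 of the 10 against 6.34% of all genes. Dio2 (1.34, SE 0.71) and Elovl3 (2.15, SE 1.14) had positive log2 fold changes of which neither passed. The skeletal muscle score lay at 0.27 to 2.46 in Has2_WT and at 3.59 to 5.63 in PH20_WT, and with it as a covariate Ucp1 was at 3.57 and called, and Prdm16 was at 0.40 and not called.

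Cox7a1 and Cox8b were also read as shares of an isoform pair, since Cox7a2 and Cox8a are the forms found in most tissues. Cox7a1 made up 29.3% ± 6.20 (SD, n = 4) of the FPKM of Cox7a1 and Cox7a2 in Has2_WT and 15.7% ± 6.81 (SD, n = 4) in Has2_TG. The lowest control had 21.4% and the highest Has2_TG library had 22.5%, so the groups overlapped narrowly, and the difference was not tested. Cox8b made up 24.7% ± 6.6 (SD, n = 4) of Cox8b and Cox8a in Has2_WT and 23.3% ± 8.25 (SD, n = 4) in Has2_TG. In the PH20 study the share of Cox7a1 was 25.3% ± 4.37 in PH20_WT and 21.6% ± 6.55 in PH20_TG, and that of Cox8b was 29.7% ± 3.44 and 27.3% ± 8.28 (SD, n = 4 each), with overlapping groups. Of the other cytochrome c oxidase isoforms, 0 of 6 were called in the Has2 study. In the PH20 study 1 of 7 was called, the striated muscle form Cox6a2, at 9.44 ± 2.07 FPKM in PH20_WT and 1.83 ± 3.0 FPKM in PH20_TG (log2 fold change -3.90, adjusted p = 0.664 in limma).

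Across the 16 libraries Ucp1, Cidea, Cox7a1, Cox8b, Elovl3 and Pdk4 were correlated with each other, with Pearson r from 0.53 to 0.92, while Prdm16 and Ebf2 did not follow them. The correlations that follow are descriptions over 16 libraries that share 4 groups and a common scaling. Cox7a1 had a Pearson r of 0.92 with Cox8b and of 0.90 with Cidea, Ucp1 had 0.83 with Elovl3 and 0.80 with Cidea, and Pdk4 had 0.77 with Cidea. Dio2 and Ppargc1a formed a second pair with an r of 0.79, and both also followed Ucp1 (0.62 and 0.59). Prdm16 had an r between -0.09 and 0.17 with the 8 genes other than Ebf2, and -0.38 with Ebf2. Ebf2 was lowest with Cox7a1, at -0.48, and highest with Ppargc1a, at 0.47.

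**Figure D3:**
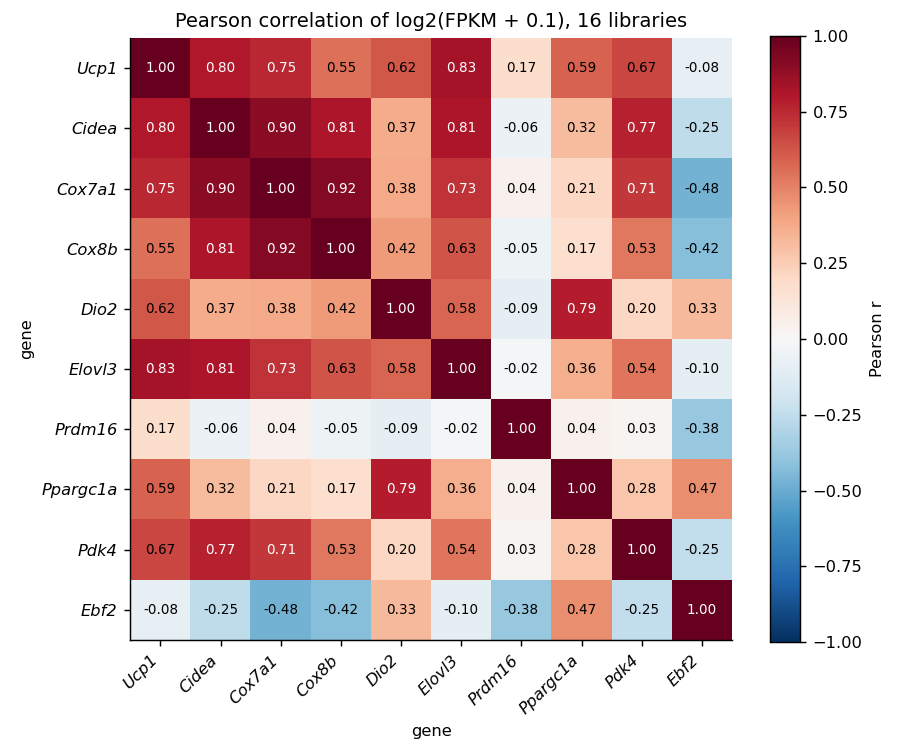
Pearson correlation of log2(FPKM + 0.1) between each pair of the 10 genes over the 16 libraries, from -1 in blue to 1 in red. Cidea, Cox7a1, Cox8b, Ucp1 and Elovl3 form a block of values from 0.55 to 0.92, Dio2 and Ppargc1a a pair at 0.79, and Prdm16 lies between -0.09 and 0.17 with the genes other than Ebf2.

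The genes most like each member were sought among the 12583 other genes of the same fit. For Ucp1 they were Slc27a2 (r = 0.91), Acot11 (0.90) and Pank1 (0.90). For Cidea they were Acaa2 (0.94), Coq8a (0.93) and Chchd10 (0.90), for Cox7a1 Uqcrb (0.94), Usmg5 (0.92) and Chchd10 (0.90), and for Cox8b Cox6b1 (0.95), Cox7c (0.95) and Ndufa6 (0.95). Uqcrb, Cox6b1, Cox7c and Ndufa6 encode subunits of the respiratory chain, Usmg5 a subunit of the ATP synthase, and Acaa2 an enzyme of mitochondrial fatty acid oxidation. Pdk4 was closest to Zfp617 (0.86), Gm14117 (0.85) and Hadhb (0.85), and Elovl3 to Tbrg4 (0.88), Mtfp1 (0.85) and Xrcc6 (0.85). Dio2 and Ppargc1a shared Atl2 as their closest gene (0.81 and 0.84), followed by Abca1 (0.78) and Glrx2 (0.78) for Dio2 and by Mtfr1l (0.80) and Pex26 (0.79) for Ppargc1a. Prdm16 was closest to Cspg4 (0.84), Zfp423 (0.82) and Trak1 (0.82). Ebf2 was close to the homeobox gene Hoxc9 (0.84) and to Zfhx4 (0.84).

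Because some of these genes are expressed in muscle too, each was set against the skeletal muscle score, the mean log2(FPKM + 0.1) of the muscle markers in a library. Over 16 libraries, 5 of 10 relations had an unadjusted two-sided permutation p under 0.05, and 0 of 10 did after Benjamini-Hochberg adjustment, where each of the 5 had 0.0516. Taken as deviations from the group means, 7 of 10 relations passed after adjustment. Cidea had an r of 0.60 (permutation p = 0.0147) and a rho of 0.54 (permutation p = 0.0360), Pdk4 an r of 0.58 (permutation p = 0.0160) and a rho of 0.58 (permutation p = 0.0218). Cox8b had an r of 0.58 (permutation p = 0.0183) and a rho of 0.48 (permutation p = 0.0621), and Cox7a1 an r of 0.54 (permutation p = 0.0258) and a rho of 0.49 (permutation p = 0.0571). Prdm16 went the other way, with an r of -0.56 (permutation p = 0.0256) and a rho of -0.46 (permutation p = 0.0766). Ucp1 had an r of 0.28 (permutation p = 0.281) and a rho of 0.25 (permutation p = 0.343).

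Without Has2_TG3 and Has2_TG4, the 2 libraries farthest from the median score, the r of Cidea was 0.39, that of Pdk4 0.27, that of Cox8b 0.40, that of Cox7a1 0.25 and that of Ucp1 -0.01, and none of these 5 had an unadjusted permutation p under 0.05. The r of Prdm16 was then -0.77 (permutation p = 0.00138, adjusted p = 0.0138). Within the Has2 study Cidea had 0.76 (exact permutation p = 0.0257), Pdk4 0.76 (exact permutation p = 0.0285) and Prdm16 -0.41 (exact permutation p = 0.311). Within the PH20 study the same genes had 0.46, 0.34 and -0.75, with exact permutation p-values of 0.248, 0.426 and 0.0299. None of the relations within a study passed after adjustment.

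As deviations from the means of the 4 groups, which takes out differences between groups, r was 0.65 for Ucp1, 0.70 for Cidea, 0.67 for Cox7a1, 0.66 for Cox8b, 0.68 for Dio2 and 0.66 for Pdk4, each with an adjusted permutation p of 0.0110. Elovl3 had 0.57 (adjusted permutation p of 0.0280). Prdm16 (-0.51), Ppargc1a (0.50) and Ebf2 (-0.05) did not pass after adjustment. The permutations do not count the 4 means taken out, so these p-values are somewhat too small. Pooled over the groups, libraries with more muscle transcripts than their group mean thus tended to have higher levels of these 7 genes. By rank, Elovl3 did not pass (rho 0.45, adjusted permutation p of 0.117). The relation did not hold in every group. In Has2_WT, Dio2 was highest in Has2_WT2, the library of that group with the lowest muscle score (0.27). What links the values was not tested.

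**Figure D4:**
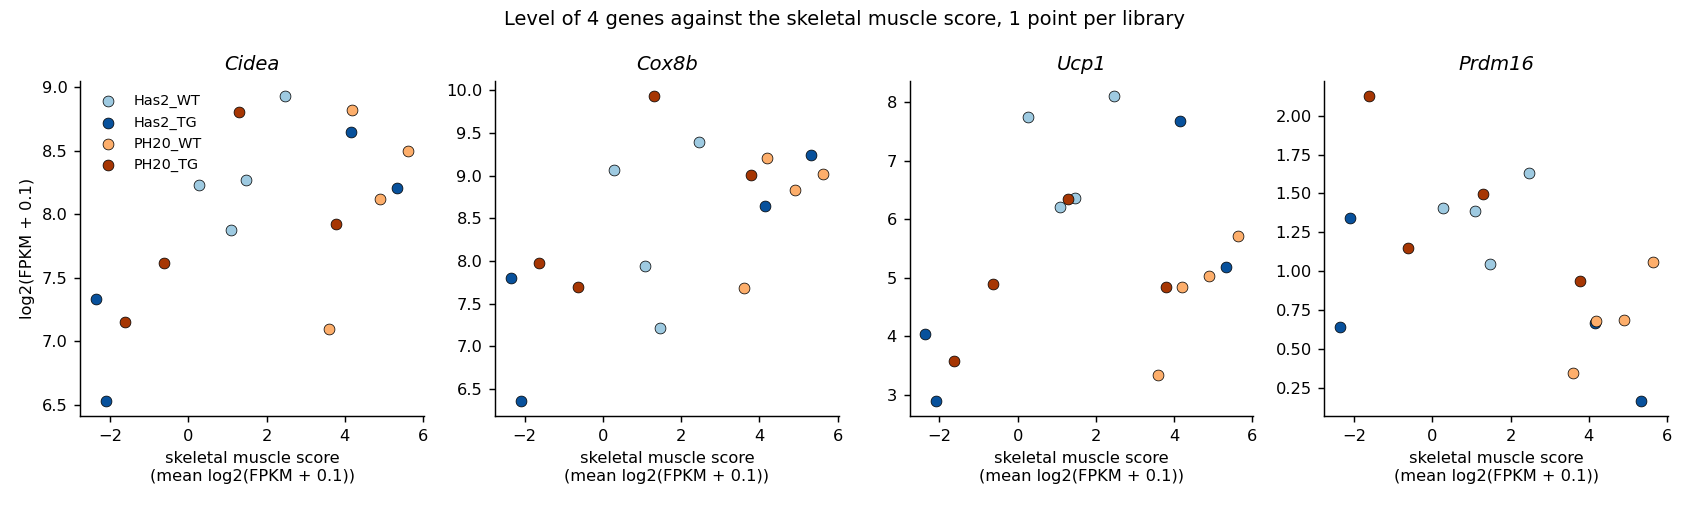
Level of Cidea, Cox8b, Ucp1 and Prdm16 as log2(FPKM + 0.1) on the vertical axis against the skeletal muscle score on the horizontal axis, with 1 point per library coloured by group. Pearson r over the 16 libraries was 0.60 for Cidea, 0.58 for Cox8b, 0.28 for Ucp1 and -0.56 for Prdm16.

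Some other effector genes of brown adipocytes were lower in Has2_TG as well. Of 15 listed, 14 were tested, 6 were called lower, 0 higher and 8 not called, against 3.75% of all genes called lower, and all 14 log2 fold changes were negative, with a median of -0.84 against -0.03 over all genes tested. After adjustment 0 of the 14 were called. The thioesterase Acot11 was at 11.9, 8.28, 23 and 7.25 FPKM in Has2_WT1 to Has2_WT4 and at 5.41, 2.64, 0.318 and 1.33 FPKM in Has2_TG1 to Has2_TG4. Every Has2_TG library lay below every control, and the log2 fold change was -2.72 (SE 0.70, adjusted p = 0.165 in limma). The proton channel Otop1 was at 25.1 ± 7.49 FPKM in Has2_WT and 11.4 ± 5.52 FPKM in Has2_TG (log2 fold change -1.20, SE 0.32, adjusted p = 0.186 in limma). Both were called in all 21 alternatives. The mitochondrial protein Letmd1 (-0.74) and the potassium channel Kcnk3 (-0.68) were called lower too, and so were the lipid droplet protein Plin5 (-1.14) and the purinergic receptor P2rx5 (-0.94), which the naming rule did not pick and which are named after their values were seen. The groups did not overlap for Acot11, Plin5 and Kcnk3, where 6.19% of all genes had groups that did not overlap. For Kcnk3 the gap was narrow, with the lowest Has2_WT library at 33.8 FPKM and the highest Has2_TG library at 33.5 FPKM.

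In the PH20 study 0 of these 14 genes were called by limma at an unadjusted p under 0.05. Over all genes of that study 3.20% were called higher and 3.39% lower. The 14 genes had 8 positive and 6 negative log2 fold changes and a median of 0.06. The difference between the studies was called for Acot11 (-2.92, adjusted p = 0.598 in limma) and Otop1 (-1.19, adjusted p = 0.614 in limma). As with Ucp1, Has2_WT stood apart from PH20_WT. Of the 14 genes, 5 were called higher in Has2_WT and 0 lower, against 5.61% and 4.66% of all genes. They were Acot11 (2.18), Otop1 (1.14), Letmd1 (0.66), Kcnk3 (0.83) and Clstn3 (0.88), and 0 passed after adjustment. These comparisons share the Has2_WT libraries.

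**Figure D5:**
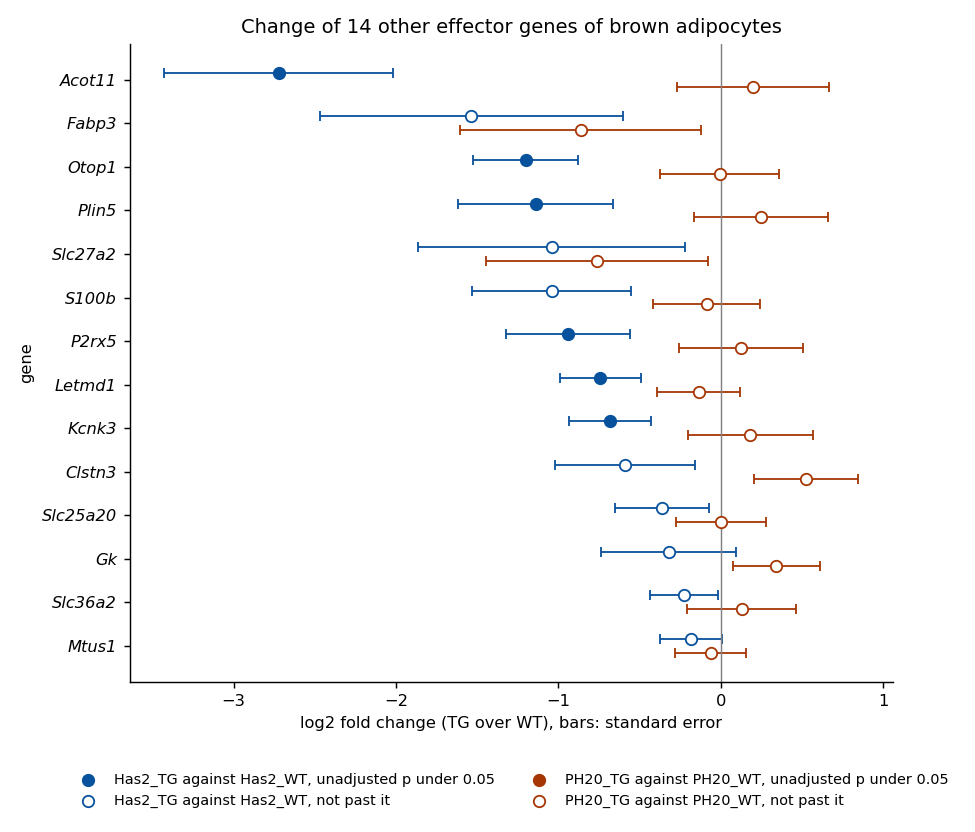
Log2 fold change (TG over WT) of the 14 other effector genes of brown adipocytes that were tested, ordered by the Has2 study, with the standard error as bars and filled points for an unadjusted limma p under 0.05. All blue points, for the Has2 study, lie left of 0, with Acot11 at -2.72, and the brown points, for the PH20 study, lie on both sides.

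Few genes upstream of the programme were called. Of 12 other activators tested in the Has2 study, 1 was lower, the fatty acid receptor Ppara (-0.82, adjusted p = 0.344 in limma), and of 11 in the PH20 study 1 was lower, the coactivator Ppargc1b (-0.69, adjusted p = 0.664 in limma). Of 4 repressors, 0 were called in either study. Of 11 receptors tested, the natriuretic peptide receptor Npr1 was higher in Has2_TG (0.79, adjusted p = 0.273 in limma) and 0 were called in the PH20 study. Of the 3 ligands tested in the Has2 study, Bmp7 (1.51) and Bmp4 (1.08), growth factors that act on adipocyte progenitors, were higher, and of the 2 tested in the PH20 study 0 were called.

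Of 6 beige adipocyte markers tested in the Has2 study, Ear2 (0.83) and Hoxc9 (0.52) were higher in groups that did not overlap. The list did not move as a whole: 0 were called lower, 3 log2 fold changes were positive and 3 negative, with a median of -0.007. Over all genes of that study, 6.25% were called higher and 6.19% had groups that did not overlap. Ear2 is a ribonuclease that immune cells also make. Of 5 tested in the PH20 study, Sp100 was lower (-0.78), against 3.39% of all genes called lower. It was called in 12 of 22 alternatives, with values from -1.06 to -0.16. Of the 5 log2 fold changes 2 were positive and 3 negative. Of 3 markers of brown adipocytes tested in the Has2 study, Mpzl2 was lower (-1.61). The log2 fold changes of the 3 reached up to 1.33, with 1 positive and 2 negative. Of the 2 tested in the PH20 study 0 were called. Among 6 genes of thermogenesis without UCP1, the creatine kinase Ckb (0.54) and the creatine transporter Slc6a8 (0.64) were higher in Has2_TG, and the creatine synthesis enzyme Gamt (0.54) was higher in PH20_TG.

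Close relatives of the 10 genes did not follow them in a body. Of 12 tested in the Has2 study, 3 were lower and 1 higher, and 0 of 12 were called in the PH20 study. The fatty acid elongase Elovl6 fell from 119 ± 59.97 FPKM in Has2_WT to 38.1 ± 15.7 FPKM in Has2_TG (log2 fold change -1.59, SE 0.38, adjusted p = 0.135 in limma). The kinase Pdk1 (-0.87) and the uncoupling protein homologue Ucp3 (-0.46) were lower, and Pdk3 (0.62) was higher.

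Other cell types of the tissue moved in the Has2 study beside these genes. Of 6 adipocyte progenitor markers tested, 5 were higher in Has2_TG, against 6.25% of all genes, and 0 passed after adjustment. They were led by Dpp4 (1.77), Ly6a (1.31), Cd34 (1.62) and Pi16 (1.98). The progenitor markers summed to 129 to 252 FPKM in Has2_WT and 360 to 520 FPKM in Has2_TG. In Has2_WT against PH20_WT the 6 log2 fold changes were all negative, with a median of -0.92 and 1 called lower. Both comparisons share the Has2_WT libraries. Of 6 macrophage markers 3 were higher in Has2_TG (Adgre1, Csf1r and Mrc1), and of 5 endothelial markers 1 was (Tek, 1.27). In the PH20 study 1 of 6 progenitor markers was higher, Pdgfrb (0.47), and 0 of 6 macrophage and 0 of 5 endothelial markers were called. Progenitor markers summed to 526 and 555 FPKM in PH20_TG1 and PH20_TG4 and to 122 and 141 FPKM in PH20_TG2 and PH20_TG3. In PH20_WT they summed to 172 to 533 FPKM. Leaving out PH20_TG1 and PH20_TG4 thus also removed the libraries of that group with more progenitor transcripts. Macrophage markers summed to 1509 FPKM in PH20_TG1 and to 160 to 469 FPKM in the other PH20_TG libraries. The part of these cells in the levels of the thermogenic genes was not tested.

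The deposited positions of the 10 genes are those of GRCm38. Ucp1 lies on chromosome 8 from 83290352 to 83298452 on the plus strand, and Prdm16 on chromosome 4 from 154316125 to 154636873 on the minus strand. In GENCODE release 21, exons of Dio2, Elovl3, Prdm16 and Ebf2 overlap exons of a gene on the opposite strand, and no source used here states whether reads were counted by strand. The partner of Elovl3, Pitx3, reached 1.72 FPKM, and those of Dio2, Prdm16 and Ebf2 (Gm26512, B230104I21Rik and Gm10860) reached 0.725, 1.08 and 0.567 FPKM, with a median of 0 each. Reads of these pairs cannot be told apart, and their part in the values was not tested.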

How the data were processed

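RNA of iWAT from 16 male mice, 4 in each of 4 groups, was sequenced with an Illumina TruSeq kit. According to the submitters' processing notes, the authors used FastQC 0.11.9, STAR 2.7.9a on GRCm38 and MultiQC 1.12, and read counts per gene came from STAR. The authors deposited FPKM for 54532 genes, not counts, with the other column used being the gene length. The totals that the deposited FPKM imply were 0.886 to 1.14 times the reads summed over genes. A normalization of the libraries is thus already in the deposited FPKM. In the fits of 16 libraries, median-of-ratios scaling left the calls and the median over all genes unchanged, as values already scaled in that way would. FPKM times length and total gave whole reads (within 0.01) in 100% of the values. No column was left unmapped.

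Groups were taken from the labels. Each study was fitted on its 8 libraries with limma 3.58.1 (R 4.3.3) on log2(FPKM + 0.1), two-sided, with a variance trend, where the mean over its libraries reached 50 reads. A gene was called at an unadjusted p under 0.05, and adjusted p-values are Benjamini-Hochberg values over all genes tested. Fold changes are on this scale and understate those of low genes. The 16 libraries together gave the test of the difference and the comparison of both control groups. The limma procedure was tested on simulated data. Correlations used 100000 permutations for 16 or 14 libraries and all 40320 orders for 8. No 2 libraries were duplicates by a chi-square over genes, with a smallest value of 32.5 per degree of freedom. A count of 0 allows up to 3 reads, for counting error only.

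The 10 genes and the lists were chosen with earlier results of these data known. All 10 are named, and of each other list the genes called in either study, at most 4 by smallest p, together with the 3 genes most correlated with each member, of which 1 is not reported here. Alternatives changed the scale (a pseudocount of 1, quantile normalization, median-of-ratios scaling), the filter (a minimum mean FPKM of 1, or none) and the model (voom weights, all libraries in 1 fit, a flat variance prior, a block for the replicate number, a muscle, B cell or adipocyte score as covariate). Each library was also left out in turn. Leaving out the 4 libraries with B cell transcripts, leaving out PH20_TG1 and PH20_TG4, and the count of the other effector genes under each alternative, were added after seeing the data.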

Additional observations from a re-analysis of the deposited data

Results flagged for a closer look

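In 4 of the 40 combinations of gene and group, 1 library lay far from the other 3 of its group by Dixon's test, which chance gives in about 1 of 20. Ucp1 was at 206 FPKM in Has2_TG1, where the gap to the next library was 0.854 of the range of the group. Ppargc1a was at 1.25 FPKM in Has2_WT1, below the rest of its group, with a gap of 0.909 of the range. Elovl3 was at 3.91 FPKM in PH20_WT4 and at 4.17 FPKM in PH20_TG3, each above the rest of its group, with gaps of 0.961 and 0.898 of the range. Some of these flags depend on the scale. On the log2 scale of the fits, Ucp1 was at 7.69, 5.19, 2.89 and 4.04 in Has2_TG1 to Has2_TG4. Elovl3 was at -0.81, -0.37, 2.10 and -0.08 in PH20_TG1 to PH20_TG4. Both gaps were then below the cutoff, while those of Ppargc1a in Has2_WT and Elovl3 in PH20_WT stayed above it.

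The log2 fold changes of the 2 studies differed for 2 of the 10 genes by limma's test of the difference. PH20_TG1 had no Spam1 read, PH20_TG1 and PH20_TG4 had Has2 at the level of Has2_TG (3.32 and 3.26 FPKM), and Prdm16 also differed between the control groups, so the difference is one between the labelled groups. For Prdm16 the log2 fold change in the Has2 study minus that in the PH20 study was -1.40 (limma adjusted p = 0.567), with 3 of 4 Has2_TG libraries below every control and 3 of 4 PH20_TG libraries above every control. For Ebf2 it was 0.65 (limma adjusted p = 0.611), with 3 of 4 Has2_WT libraries below every Has2_TG library. Neither difference passed after adjustment in the fit of all 16 libraries. Without PH20_TG1 and PH20_TG4 they were -1.78 and 0.73, and that of Prdm16 then passed after adjustment.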

How the results depend on the processing

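The numbers of members called were small and moved with the settings. In the Has2 study, where 2 were called, 1 was called with a mean FPKM of at least 1, with no variance trend or with the B cell score in the fit, 5 with the muscle score as a covariate (484 of all 12606 genes were then called lower and 789 higher), and 0 without the libraries with B cell transcripts. In the PH20 study, where 1 was called, 0 were called with the muscle score, with the B cell score, and without the libraries with B cell transcripts. In the difference between the studies, where 2 were called, 7 were with the muscle score (of all 12593 genes, 595 lower and 465 higher) and 1 without those libraries. Between the control groups, where 2 were called, 4 were with quantile normalization, 5 with the muscle score (of all genes, 726 higher and 434 lower), 1 with the adipocyte score and 0 without those libraries. Leaving out 1 library gave 0 to 5 in the Has2 study, 0 to 1 in the PH20 study, 1 to 3 in the difference and 0 to 4 between the controls. The other effectors of brown adipocytes called in the Has2 study numbered 4 to 9 when 1 library was left out and 4 to 7 otherwise, against 6.

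Without PH20_TG1 and PH20_TG4 these counts of members did not change, Cox8b was at 0.27 in the PH20 study, and the calls over all genes were 702 higher and 1033 lower in that study, and 1028 higher and 750 lower in the difference, of which 322 passed after adjustment.

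With the replicate number as a block, 1 member was called in the Has2 study, where Ucp1 was at -2.16 and not called, and the block changed the count of members in no other comparison. Libraries of the same number deviated together with r from -0.18 to 0.13 in the Has2 study. In the PH20 study r went from -0.04 to 0.42. Libraries of unlike number were not compared, so whether the numbers pair the samples is not settled. Over all genes the block moved the calls from 401 higher and 425 lower to 633 and 669 in the PH20 study. In the Has2 study it moved them from 788 and 473 to 750 and 403.

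Among the values recomputed, signs turned only for those not called, apart from the muscle marker Tnnt3, which is part of the muscle score and was at 0.086 with that score as a covariate. In the PH20 study the muscle score as a covariate gave 0.51 for Cidea, 0.90 for Cox7a1, 1.15 for Cox8b and 0.11 for Pdk4. The B cell score gave -0.55 for Ucp1 and -0.19 for Ppargc1a, the adipocyte score -0.095 for Ucp1, and leaving out the libraries with B cell transcripts -0.36 for Ucp1 and -0.12 for Ppargc1a. With 1 library left out, the Has2 study gave -0.11 to 1.08 for Dio2, -0.066 to 0.60 for Ppargc1a and -0.80 to 0.16 for Cox8b. The PH20 study gave -0.29 to 0.63 for Ucp1, -0.10 to 0.23 for Ppargc1a, -0.53 to 0.15 for Cox7a1, -0.45 to 0.29 for Cox8b and -0.55 to 0.087 for Pdk4. Of the relations with the muscle score, where 5 had an unadjusted permutation p under 0.05, 2 did within the Has2 study, 1 within the PH20 study, 1 without the 2 farthest libraries and 8 as deviations from the group means, where 7 passed after adjustment. The sign of r turned within the PH20 study for Dio2 (-0.29), Ppargc1a (-0.037) and Ebf2 (0.48), and without the 2 farthest libraries for Ucp1 (-0.010) and Ebf2 (0.32). Over all genes tested, voom weights turned the split of higher against lower calls from 401 and 425 to 221 and 589 in the PH20 study, from 507 and 463 to 763 and 310 in the difference, and from 706 and 587 to 414 and 1099 between the controls, where the median of all genes moved to -0.12. The causes of these changes were not tested. With 4 libraries a group, and with Dio2 and Elovl3 resting on few reads, these data give wide intervals for most members.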
